A study of Rattus norvegicus with 54 samples.

Results

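The rat miRNAs described here are those with late catalogue numbers, that is every row of the miR-seq count table whose number after miR- is 3000 or higher, of either arm and any copy, except miR-3473. There were 121 such rows among 832, and they stand for 112 distinct mature names because 9 rows are further copies of a name already listed. miR-3473, with 10047 reads, is given apart. The table came from 54 libraries of male Sprague-Dawley rats aged 9 weeks, in 18 groups of 3 libraries, each group being a sample type of the treated or vehicle rats of a toxicant. Cisplatin, a platinum chemotherapy agent that injures the kidney tubule, was given intravenously at 5 mg/kg with 0.9% saline as vehicle, and kidney, plasma and urine were taken 72 h later. Acetaminophen (APAP, 1250 mg/kg by gavage, vehicle 0.5% methylcellulose) and carbon tetrachloride (CCl4, 1500 mg/kg by gavage, vehicle corn oil) both injure the liver, and liver, plasma and urine were taken 24 h after each. The urine cisplatin labels give 1500 mg/kg where the dosing protocol gives 5. Treated libraries were set against the vehicle libraries of the same sample type, and kidney from APAP or CCl4 rats and liver from cisplatin rats were not analysed here.

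A miRNA is cut out of a folded hairpin RNA as a short duplex, and either strand of it (the 5p or the 3p arm) can be loaded into an Argonaute protein, while the strand left over is degraded. Bases 2 to 8 of the loaded strand, the seed, pair with target mRNAs. Catalogue numbers follow the order of discovery, so late numbers went mainly to miRNAs found by deep sequencing rather than by cloning, and many have no established role.

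The sequences below are those of the late-numbered miRNAs on which the tissue and toxicant results turn, taken from RefSeq (rat build GRCr8), with the seed in capitals. The reads were aligned by the authors to another build, Rnor_5.0, and no coordinates were carried between builds. A mature sequence was matched for 106 of the 121 rows.
miR-3559-5p: uGACAGACuuaguacuacauga
miR-3559-3p: aUGUAGUAcugagucugucgug
miR-3585-5p: uUCACAAGaaggugucuuucau
miR-3068-3p: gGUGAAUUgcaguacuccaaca
miR-6329: aAUGUGACucagcuaucugaaca
miR-6328: aGGCCUGCucugagcccccgc
miR-3084a-3p: uUCUGCCAguccccuucagaca
miR-3084d: uUCUGCCAguccccuucagaca
No seed among the first 6 was shared with another rat mature miRNA of the RefSeq table. miR-6328 was the most GC-rich of these sequences, at 76.2% G or C, against 36.4% for miR-3559-5p and for miR-3585-5p. The hairpin of miR-3559 lies on the minus strand at chrX:73660128-73660242 within the span of Zdhhc15, that of miR-6329 within Rdx and that of miR-6328 within Ppp1r18. RefSeq places miR-3068 and miR-3084d under the symbols Snora58 and Snora19, which are names of small nucleolar RNAs. miR-3585 had no protein-coding gene over it. The labels of the organs matched their markers: the 4 hepatocyte miRNAs (both arms of miR-122 and miR-802) summed to 22340 to 25434 per 1000000 counted reads (RPM, the unit used throughout) in methylcellulose livers and to 29.6 to 49.5 RPM in saline kidneys.

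Late-numbered miRNAs made up 14.5% of the rows of the table but 0.0642% of its reads (19720 of 30697724 counted reads). The median library share in vehicle rats was 0.0666% in kidney, 0.0568% in liver and 0.0666% in plasma. The vehicle libraries ranged from 0.0645% to 0.0747% in kidney, from 0.0533% to 0.0700% in liver and from 0.0575% to 0.0961% in plasma, so the 3 ranges overlapped. Reads were concentrated in few rows, and the 6 most abundant held 75.5% of them. No late-numbered miRNA was among the leading rows of a sample type, the highest placed being miR-3068-3p, 104th of 640 rows with reads in kidney.

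The makeup of these reads, pooled over vehicle and treated libraries, differed in each sample type. Deep libraries weigh most in such pools, and CCl4 livers 2 and 3 held 1471 and 1436 of the 6037 liver reads. In kidney, miR-3068-3p gave 34.2% and miR-3585-5p 25.1% of the late-numbered reads. In liver, miR-3559-5p led with 28.8%, followed by miR-6329 with 11.3% and miR-3559-3p with 10.8%. In plasma, miR-6329 gave 26.8% and miR-6328 gave 16.6%, and the leading 5 together held 87.2%.

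**Figure D1:**
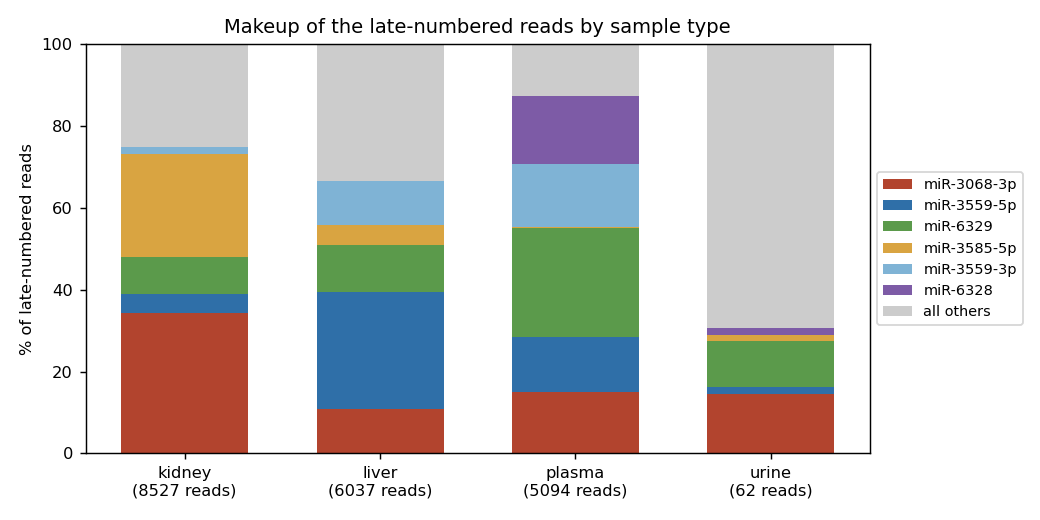
Makeup of the reads on late-numbered miRNAs by sample type, as a percentage of those reads on the vertical axis, pooled over all libraries of the type. Kidney was led by miR-3068-3p (34.2%), liver by miR-3559-5p (28.8%) and plasma by miR-6329 (26.8%), and urine held only 62 such reads.

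Depth, which limits what can be detected, differed widely between the sample types. Kidney libraries held 372997 to 3591541 counted reads, liver libraries 273410 to 2213358, plasma libraries 21627 to 1290244 and urine libraries only 377 to 58151. Of the 121 rows, kidney had at least 1 read for 68, liver for 64, plasma for 63 and urine for 24. When each sample type was reduced to the 87823 reads of all urine libraries together, the expected number of rows detected was 13.3 for kidney, 12.9 for liver and 10.2 for plasma, and urine held 24. At that depth the remaining 710 rows of the table gave 303, 288, 295 and 329, in the same order. In urine, 13 of 18 libraries held 1 to 5 late-numbered reads and 4 held none. No late-numbered miRNA reached 10 reads over the 18 urine libraries, and the highest were miR-3068-3p with 9, miR-6215 with 8 and miR-6329 with 7. Of the 62 urine reads, 35 came from cisplatin library 1, which had 58151 counted reads. In a urine library of 377 reads a count of 0 allows a share of up to 0.796%, and such limits, like the intervals given further on, cover counting error only.

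Over all libraries, 28 of the 121 rows (23.1%) had no read, 53 had 1 to 9 reads, 24 had 10 to 99 and 16 had 100 or more. The 16 were both arms of miR-3068, miR-3559 and miR-3585, 4 rows of the miR-3084 family, and miR-6329, miR-6328, miR-6215, miR-3577, miR-6324 and miR-3102. Among the 710 other rows, 67 (9.44%) had no read, and their median was 103 reads against 4 for the late-numbered rows. The shares without a read differed by number. All 22 rows numbered under 3500 had reads, 26 of the 71 rows from 3500 to under 5000 had none, and 2 of the 28 rows numbered 5000 and above had none. No late-numbered row with 10 or more reads was limited to a single sample type, although miR-6328 came near it, with 845 of its 866 reads in plasma.

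Several rows could not be told apart. miR-3084b-3p, its copy and miR-3084d held identical counts in every library (621 reads each), and miR-3084a-3p, which has the same 22 bases as miR-3084d, held 560. These rows carry a single signal, but each was counted as a row of its own in the counts, shares and percentages given here. Reads of this family are therefore entered several times in the table, and 8 of the 9 further-copy rows repeat another row, with 2 of them unread. The exception was the second copy of miR-6319, with 37 reads against 31 for the first.

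The late-numbered names include many miRNAs annotated on the opposite strand of an older miRNA. By overlap in RefSeq, 34 names from 31 hairpins lie opposite another miRNA hairpin. 19 of the 34 had no read, 12 had 1 to 3 and 3 had more, for 140 reads in all. The mature names of the 31 partner hairpins together had 2175250 reads. Those reads were not split where a mature name belongs to more than 1 hairpin. Unread names included miR-3570 opposite miR-181a-1 (442156 reads of its mature names), miR-3556a opposite miR-29a (51017) and miR-3596d opposite let-7f-1 (755171). Of the 65 other late-numbered names with a sequence, 6 had no read and their median was 7 reads. The pairs below show what an opposite-strand pair looks like, each late-numbered miRNA followed by the partner arm on the same bases, with seeds in capitals.
miR-3590-3p: uAGCACAAugugaaaagagcuc
miR-130a-5p: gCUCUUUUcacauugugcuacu
miR-3596a: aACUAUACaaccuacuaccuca
let-7a-5p: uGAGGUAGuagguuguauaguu
miR-3074: gAUAUCAGcucaguaggcaccg
miR-24-1-5p: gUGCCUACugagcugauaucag
miR-3596a had 1 read beside 166962 for let-7a-5p, a member of the let-7 family of growth-restraining miRNAs. miR-3591, opposite the hepatocyte miRNA miR-122, had 3 reads against 228428 for both arms of miR-122. miR-3590-3p was the most read of the group, with 53 reads, 44 of them in plasma, where its level was 5.14 RPM against 0.626 in liver and 0.241 in kidney. The level of its partner hairpin's main arm, miR-130a-3p, was 1516 RPM in plasma, 672 in liver and 1399 in kidney. The partner arm on the same bases, miR-130a-5p, had only 32 reads, fewer than miR-3590-3p. miR-3074 had 43 reads spread over kidney (17), liver (11) and plasma (15), beside 81 reads for miR-24-1-5p on the same bases. Whether the counting used strand is not given in the sources used here. The reads of let-7a-5p were not also entered on miR-3596a, which lies on the same bases and had 1 read. Whether a few reads of a pair were given to the wrong strand was not tested.

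**Figure D2:**
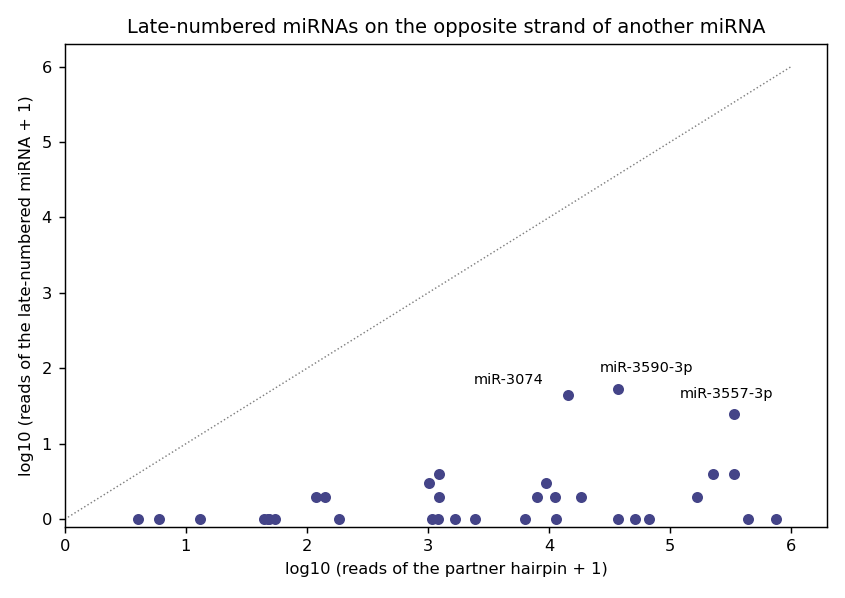
Reads of 34 late-numbered miRNAs (vertical axis, log10 of reads + 1) against reads of the opposite-strand hairpin (horizontal axis, log10 of reads + 1), 1 point per miRNA over all 54 libraries. The horizontal axis takes all mature names of that hairpin, not split where a name belongs to more than 1 hairpin. The dotted line marks equality. All 34 points lie below the line, and the 3 named points had 53, 43 and 24 reads.

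The first comparison asked how the late-numbered miRNAs differ between kidney and liver of vehicle rats. Here, as in every bulk comparison, fewer cells of a type and less RNA per cell cannot be told apart. Organ, vehicle, day of sampling and a batch code in the column headers cannot be told apart either. miR-3559-5p and miR-3559-3p were higher in liver, and miR-3068-3p and miR-3585-5p were higher in kidney. miR-3585-5p was at 165, 168 and 157 RPM in the 3 saline kidneys. In the 6 vehicle livers its RPM values ran from 20.0 to 68.3 with a median of 22.4. The groups did not overlap and the difference, liver minus kidney, was -2.37 on the log2 scale (SE 0.23, adjusted p = 2.13e-09, edgeR quasi-likelihood). miR-3068-3p was at 224, 258 and 179 RPM in kidney and at 46.1 to 70.3 RPM in liver, a log2 difference of -1.84 (SE 0.16). miR-3559-5p was at 31.7, 36.2 and 28.7 RPM in kidney and at 123 to 220 RPM in liver (log2 difference 2.45, SE 0.19), and miR-3559-3p had a log2 difference of 2.93 (SE 0.25). The identical miR-3084 rows were higher in liver by 1.15 and miR-3084a-3p by 1.24 on the log2 scale. miR-6329 passed with a log2 difference of 0.47 (SE 0.21, adjusted p = 0.0407, edgeR), although its groups overlapped and the call was lost in 10 of 15 alternatives, DESeq2 and total counts among them (log2 difference 0.26 to 0.62 over all 15). All 9 late-numbered rows tested passed the threshold of adjusted p below 0.05, beside 79.3% of all 275 rows tested, so that count sets them little apart from the table as a whole. 7 of the 9 were higher in liver, beside 42.9% of all rows. 4 of these rows are the miR-3084 signal. The median over all rows was 0.11 on the log2 scale, and -0.06 with DESeq2, and the direction of these rows was the same under every scaling tried.

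**Figure D3:**
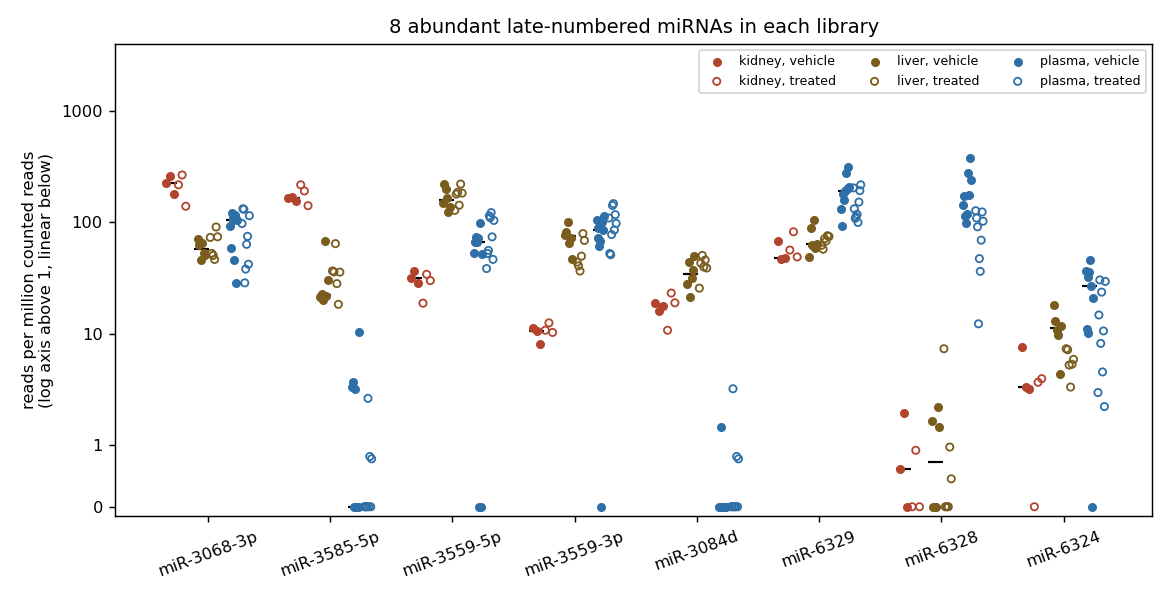
RPM (vertical axis, logarithmic above 1 and linear below) of 8 late-numbered miRNAs, 1 point per library, filled for vehicle and open for treated rats, with a bar at the vehicle median. miR-6328 was at 99.2 RPM or more in every vehicle plasma library and at 2.19 RPM or less in every vehicle kidney and liver library, while miR-3585-5p ran the other way between kidney and plasma.

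miR-6328 was higher in plasma than in either organ, and miR-3585-5p was lower in plasma than in kidney. The authors isolated plasma RNA with a biofluid procedure and organ RNA with a tissue kit, and the batch code differed as well. Sample type, RNA isolation and batch code therefore cannot be told apart here. In vehicle plasma miR-6328 ran from 99.2 to 382 RPM over 9 libraries, with a median of 173. In saline kidneys it was at 0.603, 1.95 and 0 RPM. Against kidney the log2 difference was 6.13 (SE 0.43, adjusted p = 2.76e-08, edgeR) and against liver 6.76 (SE 0.46, adjusted p = 7.89e-09, edgeR). Pooled reads gave 170 in saline plasma and 9 in saline kidney, a ratio of RPM of 112 (95% interval 57.7 to 249, exact, counting error only). In the other direction, miR-3585-5p had 2 reads in saline plasma against 1251 in saline kidney, a ratio of 105 (29.1 to 871). Its fitted log2 difference of -7.18 (SE 0.51) depends on the prior count at so few reads. Likewise miR-3084d had 1 read against 131 in the same groups, a ratio of 22.1 (3.89 to 879). miR-3068-3p was lower in plasma than in kidney (log2 difference -1.86, SE 0.31), while against liver its difference of 0.22 (SE 0.26) did not pass. miR-3559-5p, at 67.2, 71.6 and 0 RPM in methylcellulose plasma and 98.4, 0 and 51.9 RPM in corn oil plasma, was lower there than in the liver of the same vehicle groups (log2 difference -1.86, SE 0.38, adjusted p = 0.000402, edgeR) and miR-3559-3p was not called there (-0.42, SE 0.29). Both libraries at 0 were shallow, with 21627 and 70736 counted reads. Against kidney miR-3559-3p was higher in plasma by 2.39 (SE 0.28) and miR-3559-5p was not called (0.36, SE 0.28). The counts passing were 8 of 9 against kidney, beside 84.9% of all rows, and 3 of 5 against liver, beside 75.1%. The 8 included miR-6329 (log2 difference 0.71, SE 0.31), whose call was lost in 9 of 13 alternatives and whose difference was 0.03 without saline plasma library 3. Scaling moved the median of all rows between plasma and liver from -0.13 to -0.69 (DESeq2) and 0.42 (total counts). miR-6329 was at 160.0 to 311 RPM in methylcellulose and corn oil plasma and at 49.1 to 105 RPM in liver, without overlap. Its log2 difference of 1.03 (SE 0.25) passed in only 9 of 19 alternatives. It fell to 0.05 with an adjusted p of 0.912 (edgeR) when corn oil plasma library 2 was left out. When any 1 liver library was left out it fell to 0.15 to 0.35, also uncalled. Without kidney saline library 1, 4 rows passed against kidney. No late-numbered row had enough reads to be tested between urine and plasma, beside 58.9% called of 73 rows tested.

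The 2 arms of miR-3559 were not in the same proportion in organs and plasma, whose RNA was isolated by different procedures. Pooled over vehicle and treated libraries, the 5p arm gave 74.8% of the reads of both arms in kidney, 72.8% in liver and 46.4% in plasma. In libraries with at least 10 reads of both arms together, the log2 ratio of 5p to 3p reads was 1.49, 1.76 and 1.75 in the saline kidneys. It was -0.98, -0.41 and 0.03 in saline plasma. The 6 vehicle livers ran from 0.75 to 1.54 and 4 vehicle plasma libraries from -1.06 to 0.14, without overlap. The difference, plasma minus liver, was -1.38 (exact permutation test, 2-sided, p = 0.00952, the smallest value 4 against 6 allows; Benjamini-Hochberg p over 9 comparisons 0.0857). Plasma minus kidney of saline rats gave -2.12 (exact permutation p = 0.1, the smallest that 3 against 3 allows). These ratios were chosen for testing after the levels were seen, and none of the 9 passed after adjustment. In reads pooled the same way, the leading arm of miR-3068 was 3p in organs and plasma. Its 5p arm gave 7.17%, 6.22% and 2.06% in kidney, liver and plasma. The leading arm of miR-3585 was 5p in all 3, with 94.5%, 92.5% and 61.5%, the last from 8 and 5 reads.

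**Figure D4:**
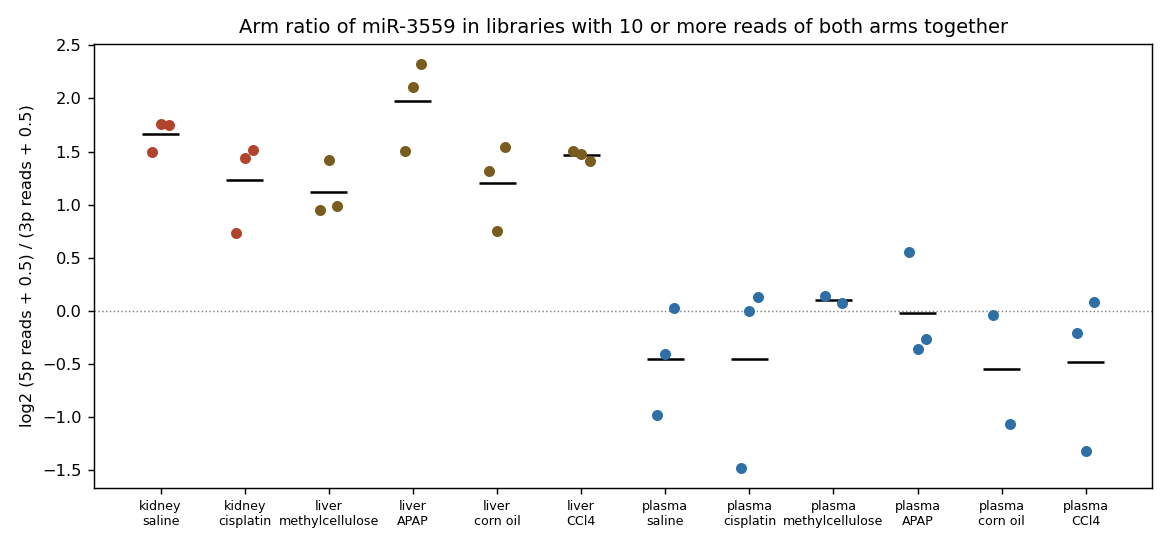
Log2 ratio of miR-3559-5p to miR-3559-3p reads (0.5 added to each) in libraries with at least 10 reads of both arms together, 1 point per library by group with a bar at the mean. Vehicle livers ran from 0.75 to 1.54 and plasma libraries of methylcellulose and corn oil rats from -1.06 to 0.14.

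The next comparisons asked which late-numbered miRNAs changed after each toxicant. No late-numbered miRNA that could be tested passed the threshold after cisplatin. In kidney 15 late-numbered rows were tested and none passed, beside 1.74% of 344 rows, and none of the 15 had an unadjusted p below 0.05. The smallest p was that of miR-3102, at 5.73, 6.96 and 7.99 RPM in saline kidneys and 5.36, 9.13 and 10.2 RPM after cisplatin, with a log2 fold change of 0.46 (SE 0.35, adjusted p = 0.863, edgeR). DESeq2 also called none, in kidney or plasma. In plasma 5 were tested, none passed beside 4.05% of 222 rows, and none had an unadjusted p below 0.05. The smallest p was that of miR-3068-3p, at 92.5, 59.0 and 121 RPM in saline plasma and 97.5, 132 and 131 RPM after cisplatin (log2 fold change 0.54, SE 0.36, adjusted p = 0.584, edgeR). Only 1 cisplatin plasma library shared the batch code of the saline libraries in the column headers, and with that code as a term, tried after the data had been seen, the fold change was 0.16. In cisplatin urine none could be tested, beside 14% called of 43 rows. Plasma miR-6215, with 5 reads over the saline and 18 over the cisplatin libraries, had too few to pass the filter of the edgeR fit. DESeq2, run without that filter, did not call it at the adjusted threshold used here. The paper, with DESeq2 and its own thresholds, lists miR-6215 among the miRNAs elevated in cisplatin plasma. It was at 3.30, 7.37 and 2.88 RPM with saline and at 5.91, 12.6 and 15.98 RPM with cisplatin, and the groups overlapped. Kidney miR-6215 differed more within groups than between them. It was at 4.52, 0.835 and 182 RPM in the saline kidneys and at 2.68, 15.5 and 116 RPM after cisplatin, so that library 3 of each group stood far above the others. miR-3577 was at 9.95, 10.6 and 4.79 RPM in the saline kidneys and at 8.04, 11.3 and 7.09 RPM after cisplatin (log2 fold change 0.03, SE 0.35).

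After APAP the 3p arm of miR-3559 fell in liver, and both arms rose in plasma. In liver, miR-3559-3p was at 76.9, 81.6 and 99.8 RPM with methylcellulose and at 43.9, 40.6 and 36.5 RPM with APAP. The groups did not overlap, and the log2 fold change was -1.13 (SE 0.29, adjusted p = 0.0126, edgeR). It was the single call among 9 late-numbered rows, beside 3.21% of 249 rows tested, and 0.402% lower. The 5p arm, at 149, 220 and 198 RPM and at 128, 179 and 186 RPM, did not pass (log2 fold change -0.18, SE 0.20). The log2 ratio of 5p to 3p reads was 0.95, 1.42 and 0.98 with methylcellulose and 1.51, 2.11 and 2.32 with APAP, a difference of 0.86 (exact permutation p = 0.1, the smallest that 3 against 3 allows, and 0.225 after adjustment over 9 comparisons). miR-3585-5p was at 21.3, 22.8 and 20.0 RPM with methylcellulose and at 36.6, 35.8 and 64.3 RPM with APAP, again without overlap (log2 fold change 1.14, SE 0.37), but its adjusted p of 0.0663 (edgeR) did not pass, and without APAP library 3 the fold change was 0.73. 2 of 9 late-numbered rows did not overlap between groups, beside 13.7% of all rows. The miR-3559-3p call was lost without APAP library 3 (adjusted p = 0.114, edgeR) or methylcellulose library 3 (adjusted p = 0.0637) and with DESeq2 (adjusted p = 0.167), with log2 fold changes between -1.25 and -1.01 over the alternatives. The summed level of the 4 hepatocyte miRNAs ran from 22340 to 25434 RPM in methylcellulose livers and from 23101 to 25421 RPM in APAP livers.

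In plasma after APAP both arms were higher. The paper, with its own thresholds, also lists miR-3559 by stem-loop name among the miRNAs elevated in APAP plasma. miR-3559-5p was at 67.2, 71.6 and 0 RPM with methylcellulose and at 114, 110 and 122 RPM with APAP. miR-3559-3p was at 60.8, 68.0 and 0 RPM and at 77.6, 142 and 147 RPM. Neither arm overlapped between the groups, but methylcellulose library 3 held only 21627 counted reads, where a count of 0 allows up to 139 RPM. The log2 fold changes were 2.27 (SE 0.64, adjusted p = 0.0218, edgeR) for the 5p arm and 2.28 (SE 0.56, adjusted p = 0.0120, edgeR) for the 3p arm. These were 2 of the 6 late-numbered rows tested, beside 26.9% of all 227 rows, and 21.6% higher. 3 of the 6 did not overlap in TMM-scaled levels, beside 48.5% of all rows. The size of the fold changes of both arms depended on scaling. By the trimmed mean of M values (TMM), APAP library 1 had a scaling factor of 0.349, and without that library the fold changes were 1.61 for the 5p and 2.03 for the 3p arm, both called. With total counts in place of TMM the fold changes were 0.91 and 1.09 and neither passed (adjusted p = 0.184 and 0.138, edgeR). That scaling moved the median of all rows from 0.21 to -0.92 on the log2 scale and the calls from 49 higher and 12 lower to 26 higher and 49 lower. Without methylcellulose library 2 the 5p call was lost (adjusted p = 0.0503, edgeR). With APAP library 1 and methylcellulose library 3 both left out, as was tried after the data had been seen, the fold changes were 1.33 and 1.76 and both passed (adjusted p = 0.0230 and 0.00894, edgeR).

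miR-6328 ran the other way in APAP plasma, at 99.2, 118 and 277 RPM with methylcellulose and at 12.3, 47.2 and 36.2 RPM with APAP. The groups did not overlap, but with TMM the log2 fold change of -1.05 (SE 0.55, adjusted p = 0.179, edgeR) did not pass, while with total counts it was -2.07 and passed (adjusted p = 0.0251, edgeR). Marker levels differed in the same plasma libraries. The 4 hepatocyte miRNAs summed to 0 to 89.5 RPM with methylcellulose and 2916 to 3253 RPM with APAP, and the 6 leukocyte miRNAs to 38761 to 44574 RPM and 3373 to 19377 RPM. The 9 kidney epithelium miRNAs summed to 28932 to 40459 RPM with methylcellulose and 185765 to 311227 RPM with APAP, but this list was also at 234387 to 264712 RPM in methylcellulose livers. The 3 muscle miRNAs summed to 2150 to 4908 RPM and 151 to 1366 RPM, and the 3 red cell miRNAs measured overlapped between the groups (1480 to 2605 RPM and 457 to 1770 RPM). The part of any of these lists in the results was not tested. miR-6329 and miR-6324 did not overlap between the groups in RPM either, but they did overlap in TMM-scaled levels. miR-6329 was at 160.0, 189.7 and 277 RPM with methylcellulose and at 112, 118 and 99.6 RPM with APAP, lower in RPM while its TMM-scaled log2 fold change was 0.51 (SE 0.56). miR-6324 was at 32.0 to 46.2 RPM and at 4.53 to 23.6 RPM, with a log2 fold change of -0.32 (SE 0.66), and neither passed. miR-3577, which had too few reads to be tested here, was at 185 RPM in the shallow methylcellulose library and at 21.5 RPM or less in the other pair, and at 6.13, 3.93 and 4.53 RPM with APAP.

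**Figure D5:**
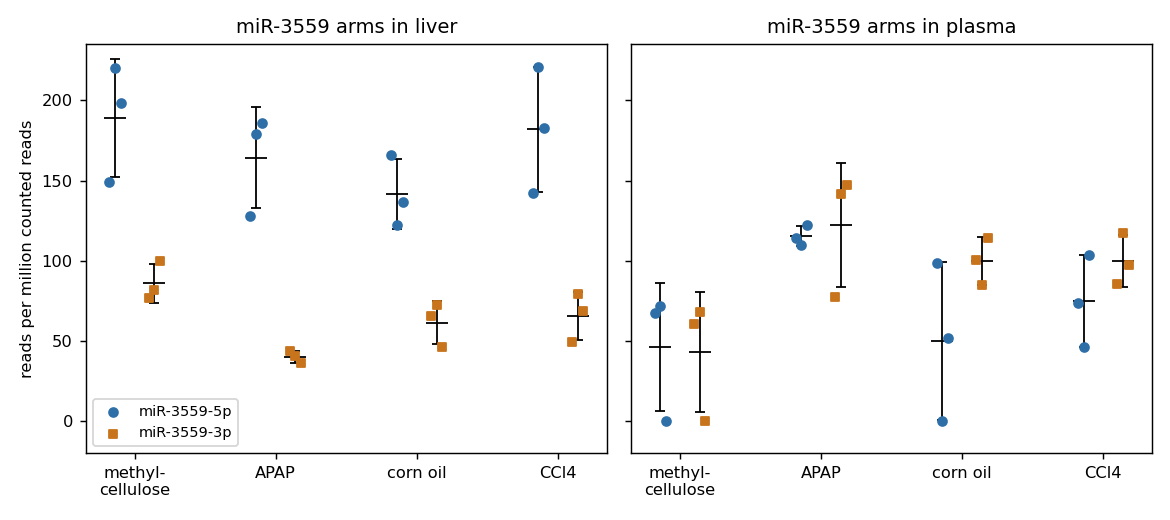
RPM (vertical axis) of the 5p (circles) and 3p (squares) arms of miR-3559 in liver and plasma of methylcellulose, APAP, corn oil and CCl4 rats, 1 point per library with the mean and SD (n = 3). The 3p arm was at 36.5 to 43.9 RPM in APAP livers against 76.9 to 99.8 RPM with methylcellulose, and in APAP plasma both arms were at 77.6 RPM or more.

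After CCl4 no late-numbered row passed. In liver 9 were tested and none passed, beside 2.76% of 254 rows called, and none had an unadjusted p below 0.05. DESeq2 called none in liver or plasma. The smallest p was that of miR-3585-5p, at 68.3, 21.9 and 30.6 RPM with corn oil and 28.1, 18.3 and 35.7 RPM with CCl4 (log2 fold change -0.65, SE 0.39, adjusted p = 0.324, edgeR). 2 of the 3 CCl4 livers carried another batch code than the other libraries, and with that code as a term, also tried later, the fold change was -0.53. In plasma 5 were tested, beside 0.433% of 231 rows called, and 1 of the 5 had an unadjusted p below 0.05. It was miR-6328, at 177, 382 and 239 RPM with corn oil and at 69.1, 124 and 102 RPM with CCl4. The groups did not overlap and the log2 fold change was -1.28 (SE 0.54), but the adjusted p of 0.497 (edgeR) did not pass. 1 of 5 late-numbered rows did not overlap, beside 12.1% of all rows. In these libraries the hepatocyte miRNAs summed to 14.1 to 83.1 RPM with corn oil and 459.6 to 2469 RPM with CCl4, without overlap. The leukocyte miRNAs summed to 37395 to 47854 RPM and 25766 to 44908 RPM, and the kidney epithelium, muscle and red cell lists overlapped as well. The part of these lists was not tested. In the urine of APAP and CCl4 rats none could be tested. Among the 20 other rows tested in each, 0% were called by edgeR or DESeq2, and 3 and 2 had an unadjusted p below 0.05.

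Whether the APAP and CCl4 responses differed was tested directly as an interaction. No late-numbered row passed in liver or plasma, beside 0% of all rows in each (edgeR), and none had enough reads to be tested in urine, beside 4.55% of 22 rows called. In liver and plasma, 2 of 9 and 1 of 6 had an unadjusted p below 0.05. In liver, miR-3559-3p differed by -1.13 (SE 0.35) and miR-3585-5p by 1.78 (SE 0.57), each with an adjusted p of 0.273 (edgeR). In plasma, miR-3559-3p differed by 2.19 (SE 0.70, adjusted p = 0.130, edgeR).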

How the data were processed

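miRNA libraries from a TruSeq Small RNA kit from 3 rats a group were sequenced and aligned by the authors with OSA to the rat genome (Rnor_5.0) and miRBase. The deposited values are raw counts of reads per mature miRNA, with no normalization. From these counts, RPM and TMM-scaled levels were computed. Each comparison was fitted over all rows with edgeR 4.0.16 (R 4.3.3; quasi-likelihood test, TMM, filterByExpr with a minimum count of 10, 2-sided, Benjamini-Hochberg over all rows tested, threshold 0.05), and checked with DESeq2 1.42.0. Scripts were tested on simulated data. Standard errors are the log2 fold change over the root of F. Equal-depth detection is an exact expectation. The rows and lists were chosen with earlier results of these data known, and named miRNAs are all called ones or the smallest p in each comparison, the most abundant, those in the study's supplementary lists, those opposite another miRNA and the largest sample type differences. Kidney libraries sharing a replicate number deviated together (correlations of 0.26 to 0.38), so the number was also fitted as a block, which changed no kidney call. Urine methylcellulose libraries 1 and 2 could not be told apart from sampling noise (chi-square test, p = 0.307), so, after the data had been seen, they were also counted as 1 sample, with no late-numbered row tested either way. A code after the sample name in the column headers, whose meaning the headers do not state, was treated as a batch. Among the treated comparisons it differed within liver CCl4, plasma cisplatin and urine cisplatin. In the comparisons between sample types no code was shared by both sides, so code and sample type cannot be told apart there.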

Additional observations from a re-analysis of the deposited data

How the results depend on the processing

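The count of late-numbered rows called in liver after APAP (1) was 0 with DESeq2, 0 with the replicate block (adjusted p = 0.0658 for miR-3559-3p, edgeR; the numbers did not pair livers) and 0 to 1 without single replicates. In plasma after APAP (2) it was 1 to 2 without single replicates. With total counts it was 1, and that row was miR-6328, lower with APAP, while neither arm of miR-3559 passed. The block changed no other call among the treated comparisons. With no filter on low counts, 17 were called between liver and kidney, 14 between plasma and liver, 14 between plasma and kidney and 5 between urine and plasma. DESeq2, also run without the filter, called 9 between plasma and liver and 29 between urine and plasma. A mean count of at least 10 gave 6 between plasma and liver. The share of all rows called is not given for these counts. In the main fits it was 79.3% between liver and kidney, 75.1% between plasma and liver, 84.9% between plasma and kidney and 58.9% between urine and plasma. The counts alone therefore do not set the late-numbered rows apart. No vehicle urine library held more than 5 late-numbered reads, so the urine counts include rows with few or no urine reads. Of the 73 rows tested there in the main fit, DESeq2 called 12 higher and 41 lower in urine, with a median of -0.96. Without single replicates the counts ran from 4 to 8 for plasma against liver and from 4 to 10 for plasma against kidney, and the number of rows tested changed as well. Without its most abundant row the share was 0.0442% in kidney, 0.0435% in liver and 0.0486% in plasma, and with miR-3473 added it was 0.126% in plasma and 9.51% in urine. At 3 reads or more, kidney had 41 rows, liver 40, plasma 44 and urine 8. At 10 or more these were 23, 21 and 18 for kidney, liver and plasma and 0 for urine. In at least 3 libraries they were 35, 37, 39 and 4, and at equal depth 13.3, 12.9 and 10.2 for the first 3. The difference in the log2 arm ratio of miR-3559 in plasma, treated minus vehicle, was 0.07 for CCl4, -0.13 for APAP and 0.003 for cisplatin. For CCl4 it was -0.44 with a minimum of 20 reads, tried after the data had been seen. That minimum left corn oil library 1 as the only vehicle library. Without single replicates the difference ran from -0.44 to 0.59 for CCl4, from -0.42 to 0.038 for APAP and from -0.29 to 0.52 for cisplatin. Depth limits urine most.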
